A study of Mus musculus with 3 samples.

Results

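Igkv genes are the variable segments of the mouse kappa light chain, and 102 of the 160 Igkv genes in the gene table reached 10 or more UMIs (unique molecular identifiers, counted transcripts) summed over all barcodes. These 102 genes held 99.9% of the 162311 Igkv UMIs. The barcodes come from 1 droplet lane with 32285 genes, in which spleen B cells of 6 hashtagged mice were pooled after a sort for viability, B cell identity and GL7, which marks B cells that are activated or in the germinal centre (GC). The groups are 3 LDHA-deficient mice, called KO in the hashtag label, and 3 LDHA-sufficient mice, called WT there, and the mouse is the replicate. LDHA is a subunit of lactate dehydrogenase, the enzyme that turns pyruvate into lactate. The sources used here name neither the Ldha allele nor the cell type in which it was deleted, and neither age, strain nor immunization. Each barcode with a single hashtag (largest hashtag count 20 or more and at least 3 times the second) was given the Igkv gene with most UMIs in it. A gene given to a cell is called used by it. Of 1905 single-hashtag barcodes, 1683 (88.3%) were given a gene, 213 had a tie for the lead and 9 had no Igkv UMI.

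A kappa chain is made when 1 Igkv segment is joined to an Igkj segment ahead of the constant gene Igkc, so that each B cell lineage keeps its own segment. Segments that point the same way as Igkj and Igkc join by deletion of the DNA between them, and segments that point the other way join by inversion. Cells that fail to make a working kappa chain can go on to rearrange lambda genes. In the GC, dividing B cells of 1 clone share the rearranged segment and mutate it, and plasma cells transcribe antibody genes at very high levels.

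The ends of the most used segments are shown as examples of the letters in which they differ. Cells were given a gene by the UMIs counted for the whole gene, not by this stretch alone. Each sequence is the last 90 bases of the annotated V segment, 5′ to 3′ in the direction of the gene, and coordinates give that stretch on GRCm38 (mm10, GENCODE vM21). Capitals mark the 11 positions that differ among Igkv1-117 (chr6:68121738-68121827, plus strand), Igkv1-135 (chr6:67610419-67610508, plus strand) and Igkv1-110 (chr6:68271178-68271267, plus strand).
Igkv1-117: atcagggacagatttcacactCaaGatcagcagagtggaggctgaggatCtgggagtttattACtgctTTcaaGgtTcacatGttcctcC
Igkv1-135: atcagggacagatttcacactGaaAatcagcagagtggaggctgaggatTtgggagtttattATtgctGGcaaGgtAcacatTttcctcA
Igkv1-110: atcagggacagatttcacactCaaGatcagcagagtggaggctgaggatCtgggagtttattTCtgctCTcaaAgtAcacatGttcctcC

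Igkv6-20 (chr6:70335841-70335930, minus strand) and Igkv6-29 (chr6:70138462-70138551, minus strand) were the closest pair, 98.7% identical over the whole segment, and capitals mark their 3 differences in this stretch. Igkv6-20 was used by 12 cells and Igkv6-29 by 0 (19 UMIs in B-lineage cells), and counts of such near copies are uncertain.
Igkv6-20: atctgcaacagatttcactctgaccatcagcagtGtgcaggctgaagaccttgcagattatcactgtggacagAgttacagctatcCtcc
Igkv6-29: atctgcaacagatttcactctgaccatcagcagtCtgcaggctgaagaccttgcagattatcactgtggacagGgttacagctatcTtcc

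Igkv1-133 (chr6:67725572-67725661, plus strand) passed a test between genotypes below, and capitals mark the 5 positions at which it differs from Igkv1-135. Igkv13-84 (chr6:68939978-68940067, plus strand) passed another, and Igkv4-72 (chr6:69226854-69226943, minus strand) was tied to a single heavy chain.
Igkv1-133: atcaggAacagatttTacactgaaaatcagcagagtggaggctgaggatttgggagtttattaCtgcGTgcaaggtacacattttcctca
Igkv13-84: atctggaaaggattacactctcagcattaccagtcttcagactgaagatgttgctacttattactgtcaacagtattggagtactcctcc
Igkv4-72: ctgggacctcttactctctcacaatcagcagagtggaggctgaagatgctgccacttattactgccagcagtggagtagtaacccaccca

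Over all 102 genes the nearest other Igkv gene, member or not, was 94.9% identical at the median, and 17 had a neighbour at 97% or more. Of the 102, 96 are annotated as V genes and 6 as pseudogenes, and the pseudogenes were used by 2 cells in all. The members just inside the minimum were Igkv18-36 and Igkv2-107 with 10 UMIs each, both used by no cell, and just outside were Igkv14-126-1 and Igkv1-108 with 9 UMIs each. Of the 58 genes below the minimum, 33 had no UMI.

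Ldha was lower in each LDHA-deficient mouse, at 0.520, 0.537 and 0.783 UMIs per 10000, than in each LDHA-sufficient mouse, at 2.36, 2.44 and 1.58. After the cell filter 1847 B-lineage cells remained, 287, 392 and 249 in the LDHA-deficient and 345, 317 and 257 in the LDHA-sufficient mice, and the median cell held 3823, 3760.5 and 3850 UMIs in LDHA-deficient mice, against 4431, 4352 and 4003 in LDHA-sufficient mice. The hashtag and heavy chain libraries are labelled as hematopoietic progenitors, which conflicts with the protocols. B-lineage cells are the 1847 of 1897 filtered cells outside the clusters named myeloid or plasmacytoid dendritic. Each of their clusters had at least 1 listed marker of a B cell state, and 1 unnamed cluster had only Fcer2a. Hashtags of more than 1 mouse removed doublets between mice, and doublets within a mouse could not be removed.

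Most B-lineage cells could be given a segment, and with more UMIs than myeloid cells. In all, 1652 of 1847 B-lineage cells (89.4%) were given an Igkv gene, 189 had a tie and 6 had no Igkv UMI. The leading gene had a median of 14 UMIs and held most of a cell's Igkv UMIs, with median shares of 71.4%, 68.8% and 68.8% in the LDHA-deficient mice, against 71.4%, 69.6% and 77.0% in the LDHA-sufficient mice. B-lineage cells held a median of 18 Igkv UMIs among 3990 UMIs, against 3 among 3089.5 in 42 myeloid cells, which carry no antibody of their own. Of those myeloid cells 42.9% were given a gene all the same. A stricter rule, 5 or more UMIs and at least 2 times the second gene, kept 1226 B-lineage cells (66.4%) and 2 myeloid cells (4.76%). When each cell was thinned to 1000 UMIs the shares given a gene were 74.9% of B-lineage and 47.6% of myeloid cells. In 130 assigned B-lineage cells (7.87%) the leading gene had only 1 or 2 UMIs. The myeloid median of 3 sums all Igkv genes, so it is not a limit for a leading gene.

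Use was broad, with a few leaders. Of the 102 genes 85 were used by at least 1 B-lineage cell, 48 by 10 or more and 26 by 1 to 5, and 37 were used in all 6 mice. The first 3 were Igkv1 family genes, and together they were used by 263 cells (15.9%). Igkv1-117 was used by 89 cells, with shares of 6.10%, 5.98% and 4.41% of assigned cells in the LDHA-deficient mice, against 3.54%, 5.23% and 7.39% in the LDHA-sufficient mice. Igkv1-135 was used by 88 cells, with 5.69%, 6.27% and 4.85% in LDHA-deficient mice, against 4.18%, 5.92% and 4.78% in LDHA-sufficient mice. Igkv1-110 was used by 86 cells, with 7.72%, 5.98% and 4.85% in LDHA-deficient mice, against 5.79%, 1.74% and 5.22% in LDHA-sufficient mice. The ranges overlap for each of the 3, and their order changes from mouse to mouse. Igkv6-15 followed with 69 cells, then Igkv10-96 with 61, Igkv12-46 with 56, Igkv12-44 with 51, Igkv17-121 with 47, Igkv6-23 with 46 and Igkv3-2 with 44, and the first 10 covered 38.6% of assigned cells.

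The gene with most cells differed between mice. It was Igkv1-110 (19 cells), Igkv1-135 (22) and Igkv6-15 (17) in the LDHA-deficient mice, against Igkv3-2 (18), Igkv1-135 (17) and Igkv1-117 (17) in the LDHA-sufficient mice. Igkv3-2 is among the segments nearest to Igkj, and 12 of its 18 cells in that mouse were GC B-like. The profile of shares over the 102 genes was similar between any 2 mice. The median Pearson's r was 0.754 over the 9 pairs of different genotype and 0.744 over the 6 pairs of the same genotype (0.661 to 0.820 and 0.667 to 0.836), so the ranges overlap. All mice share the lane.

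**Figure D1:**
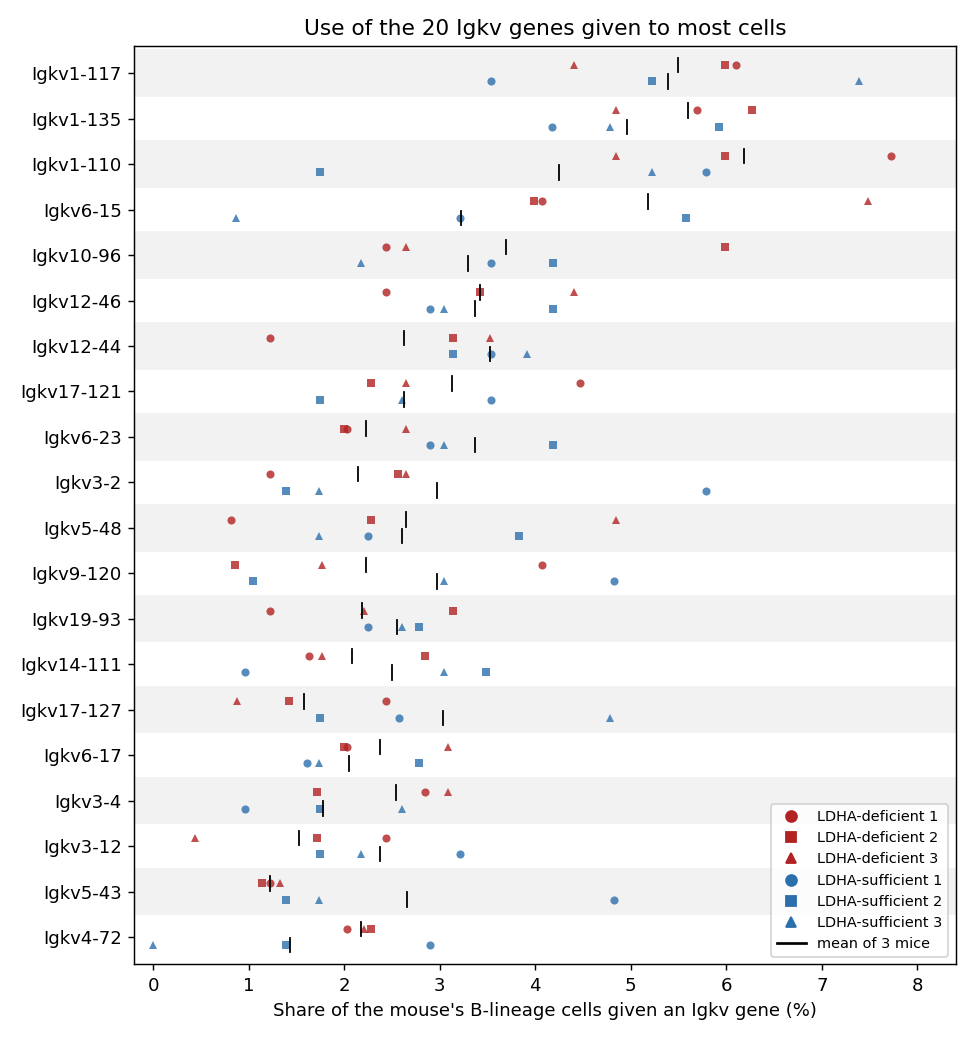
Share of assigned B-lineage cells (x axis, %) that used each of the 20 most used Igkv genes (rows), with 1 point per mouse, LDHA-deficient above LDHA-sufficient, and a bar at the mean of 3 mice. Igkv1-117, Igkv1-135 and Igkv1-110 lead with mice between 1.74% and 7.72%, and points of the genotypes overlap in most rows, with Igkv6-23 and Igkv5-43 among the exceptions.

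Igkv12-46 is a leader that the stricter rule removes in large part. Its 56 cells had a median of 3 leading UMIs, 21 of them had 1 or 2, and 18 (32.1%) passed the stricter rule. Among the other 27 genes with 20 or more cells the share that passed ran from 58.3% to 88.1%. Igkv12-46 was also the gene given to most myeloid cells, 5 of 18, and 1 plasma cell-like barcode held 6190 of its 7538 UMIs. Whether free RNA from such a cell set these assignments was not tested.

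Counting UMIs in place of cells gave another order, and single cells held most of the UMIs of several genes. Across the 102 genes cells and UMIs still correlated (Spearman's rho 0.897, a description over genes of the same libraries). The first 10 genes by UMIs held 64.3% of the 104979 Igkv UMIs of B-lineage cells, but only 5 of them were among the first 10 by cells. In 7 of these 10 genes 1 cell held more than all others together. Igkv15-103 had 10992 UMIs, second to the 11930 of Igkv1-110, yet was used by 13 cells, and 1 plasma cell-like cell held 97.8% of them. Igkv3-12 had 9843 UMIs with 91.9% in 1 cell, Igkv12-41 had 7070 with 95.5%, Igkv12-89 had 6423 with 98.2% from 6 cells, and Igkv19-93 had 4325 with 70.4%. Each of these 4 cells was plasma cell-like. Igkv1-117 had 3368 UMIs with 7.81% in 1 cell, which shows the other extreme. Igkv12-44 had 3109 UMIs, 57.0% of them in 1 GC B-like cell, and Igkv1-135 had 2944 with 17.6% in 1 cell.

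**Figure D2:**
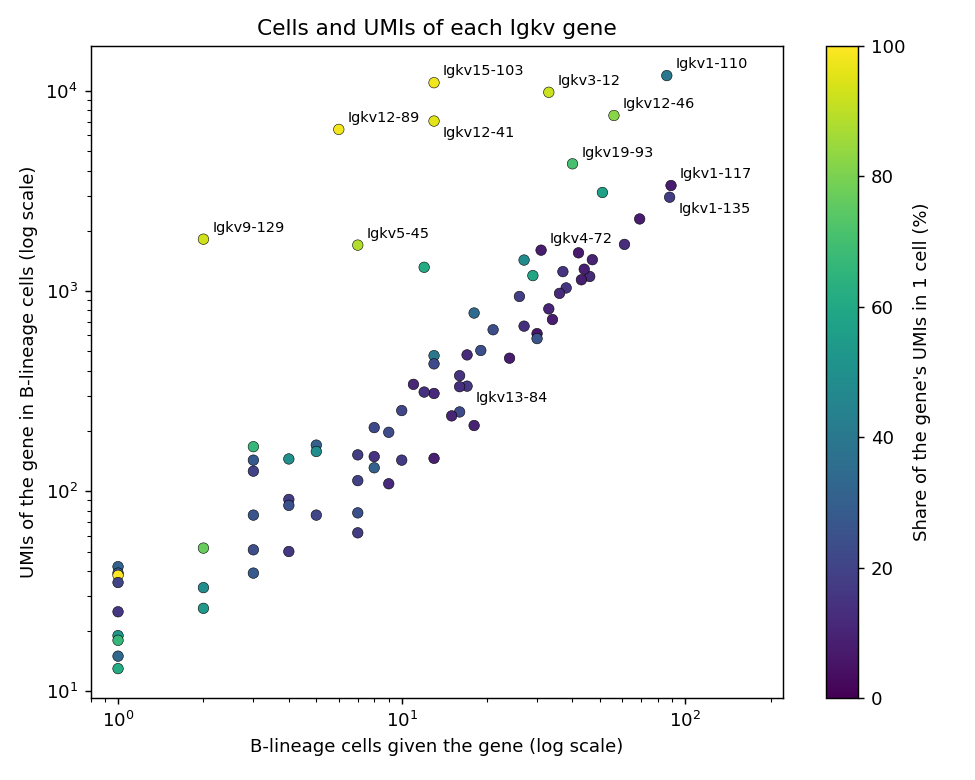
UMIs in B-lineage cells (y axis, log scale) against B-lineage cells using the gene (x axis, log scale) for the 85 used Igkv genes, coloured by the share of the gene's UMIs that lie in 1 cell (%). Most genes follow a diagonal, and Igkv15-103, Igkv12-89, Igkv12-41, Igkv3-12 and Igkv9-129 stand above it with over 90% of UMIs in 1 cell.

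The 21 plasma cell-like cells made up 1.14% of B-lineage cells and held 56662 Igkv UMIs (54.0%). They numbered 5, 0 and 1 in the LDHA-deficient mice, where they held 66.2%, 0% and 11.2% of the mouse's Igkv UMIs, and 8, 3 and 4 in the LDHA-sufficient mice, where they held 58.9%, 45.2% and 73.7%. The 9 B-lineage cells with most Igkv UMIs held at least as many as all the others together. In 14 of the 21 a single segment made up more than 90% of Igkv UMIs, 9 had more than 1000 Igkv UMIs, and 7 had more lambda than kappa variable UMIs. In the richest, an IgA cell of LDHA-sufficient mouse 3, Igkv15-103 took 10747 UMIs, and 31.3% of all UMIs of the cell were Igkv. No segment dominated among them: the 20 cells that were given a gene used 18 genes, with Igkv1-110 and Igkv19-93 used by 2 cells each. Some of these genes rest on few UMIs in lambda-rich cells, such as Igkv10-96 with 2 UMIs beside 2781 lambda variable UMIs. The stricter rule kept 17 of the 20 cells.

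By family, Igkv1 with 8 members was used by 281 cells (17.0%), Igkv6 by 12.4%, Igkv4 with its 29 members by 11.1%, Igkv3 by 8.90%, Igkv12 by 8.41% and Igkv8 by 7.51%. Igkv12 took 23.4% of UMIs, most of them from the single plasma cell-like cells named above. Igkv1 averaged 18.3% ± 3.24 of assigned cells in LDHA-deficient and 15.7% ± 2.24 in LDHA-sufficient mice (SD, n = 3 each), with overlap. Of 19 families 1 did not overlap between genotypes, Igkv16 with its single gene Igkv16-104, at 1.89% ± 0.409 in LDHA-deficient and 0.466% ± 0.483 in LDHA-sufficient mice (exact permutation p = 0.1, Benjamini-Hochberg adjusted p = 0.95 over families).

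Along the locus, use per member was highest at the far end, where the 3 most used genes lie. The members span 3149 kb of chromosome 6 (chr6:67555497-70704177), with Igkc at chr6:70726435-70726966 on the plus strand, and 39 lie on the plus and 63 on the minus strand. The 20 members 2400 to 3200 kb from Igkc, 18 of them on the plus strand, were used by 536 cells (32.4%), or 26.8 cells per member. The 31 members within 800 kb were used by 480 cells (29.1%, 15.5 per member), the 27 members at 800 to 1600 kb, all on the minus strand, by 379 (22.9%, 14.0 per member), and the 24 at 1600 to 2400 kb by 257 (15.6%, 10.7 per member). Minus strand members, which join by inversion, were used by 861 cells (52.1%).

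No stretch passed a test between the genotypes. The farthest stretch was used by 32.9% ± 8.94 of assigned cells in LDHA-deficient and 32.6% ± 5.70 in LDHA-sufficient mice, and the nearest by 28.7% ± 4.13 in LDHA-deficient mice and 29.6% ± 2.66 in LDHA-sufficient mice (exact permutation p = 1 and 0.9, n = 3 each). The distal share, over members with a position number above 70 in their names, was 59.3%, 51.9% and 42.7% in LDHA-deficient mice, against 47.6%, 46.3% and 53.9% in LDHA-sufficient mice. Its means of 51.3% ± 8.32 in LDHA-deficient mice and 49.3% ± 4.06 in LDHA-sufficient mice differ by less than the spread (exact permutation p = 0.7), and LDHA-deficient mice hold both the highest and the lowest value.

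**Figure D3:**
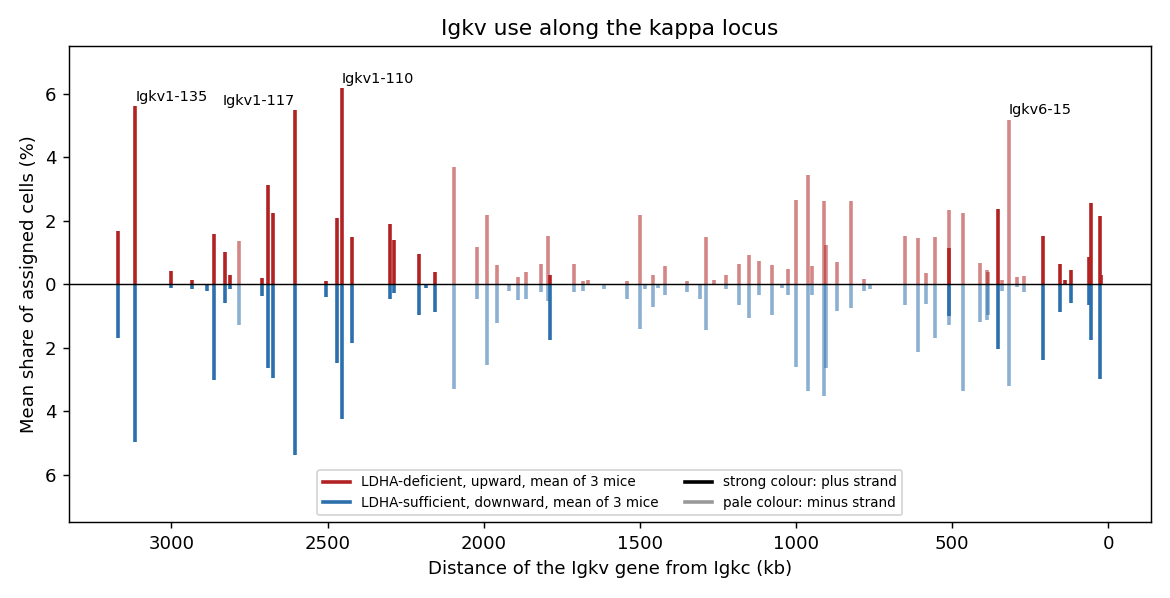
Mean share of assigned cells using each Igkv gene (y axis, %, upward for LDHA-deficient and downward for LDHA-sufficient mice, 3 each) by distance from Igkc (x axis, kb), with strong colour for plus strand and pale colour for minus strand genes. Plus strand genes crowd the far end, where Igkv1-135, Igkv1-117 and Igkv1-110 stand out in both genotypes.

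How evenly the segments were used was measured by the effective number of genes, the number of equally used genes that would give the same chance of drawing the same gene in 2 draws (inverse Simpson index). Counted by cells it was 39.2, 37.1 and 39.1 in LDHA-deficient mice, against 39.3, 41.0 and 43.3 in LDHA-sufficient mice. The values do not overlap, but lie as close as 39.2 and 39.3. The means of 38.5 ± 1.20 in LDHA-deficient mice and 41.2 ± 2.01 in LDHA-sufficient mice gave an exact permutation p of 0.1, the smallest that 3 against 3 mice allow (adjusted p = 0.5 over 10 measures). By the stricter rule the difference of -2.76 became -0.782 (exact permutation p = 1), and with HTODemux hashtag calls -0.848 (exact permutation p = 0.6). Counted by UMIs it was 5.88, 29.8 and 26.4 in LDHA-deficient mice, against 5.20, 5.29 and 3.81 in LDHA-sufficient mice (exact permutation p = 0.1). The 3 LDHA-sufficient mice and LDHA-deficient mouse 1 are low, and these are the mice in which plasma cell-like cells held 45.2% or more of Igkv UMIs. Without the plasma cell-like cells the values were 28.5, 29.8 and 32.9 in LDHA-deficient mice, against 16.3, 29.9 and 28.3 in LDHA-sufficient mice, and they overlap (exact permutation p = 0.3).

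**Figure D4:**
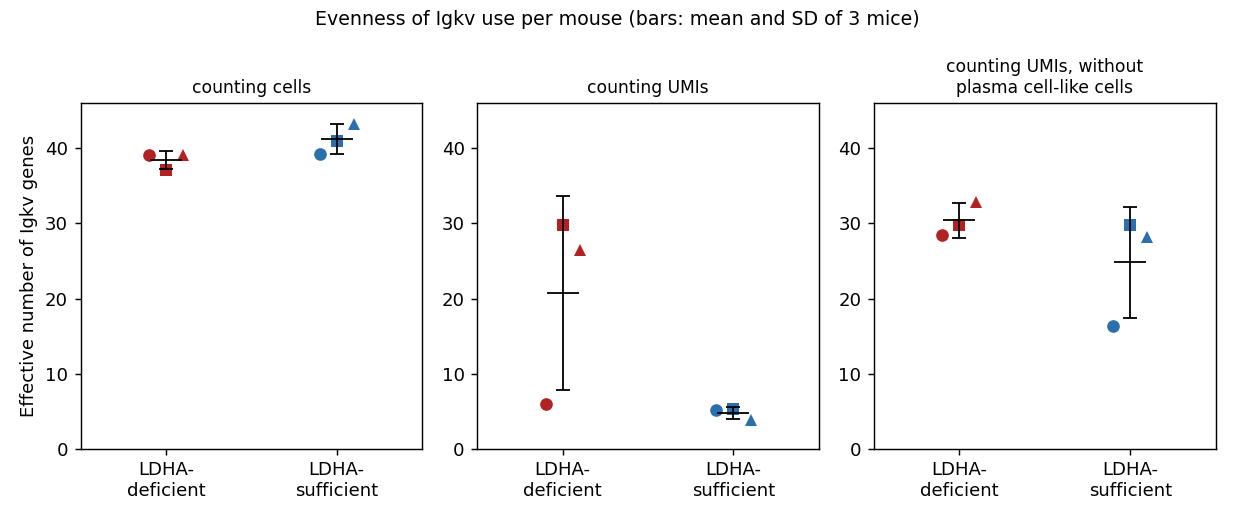
Effective number of Igkv genes (y axis) per mouse, LDHA-deficient left of LDHA-sufficient, counted by cells, by UMIs, and by UMIs without plasma cell-like cells, with the mean and SD of 3 mice. By cells all mice lie between 37.1 and 43.3, and by UMIs 4 of 6 mice fall to 5.88 or lower until plasma cell-like cells are left out.

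The other summary measures overlapped between the genotypes. The share of B-lineage cells given a gene averaged 88.8% ± 2.80 in LDHA-deficient and 90.1% ± 0.526 in LDHA-sufficient mice (exact permutation p = 0.8). Igkv UMIs per 10000 UMIs were 126, 44.8 and 52.7 in LDHA-deficient mice, against 129, 72.9 and 183 in LDHA-sufficient mice. Without plasma cell-like cells the means were 45.6 ± 1.25 in LDHA-deficient mice and 49.4 ± 8.03 in LDHA-sufficient mice (exact permutation p = 0.6). In the median cell Igkv took 41.7 ± 1.37 UMIs per 10000 in LDHA-deficient and 39.6 ± 3.14 in LDHA-sufficient mice (exact permutation p = 0.4).

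Few single segments separated the genotypes. Of the 85 used genes 9 (10.6%) had shares of cells that did not overlap, 3 higher and 6 lower in LDHA-deficient mice. The smallest adjusted p was 0.773, from an exact permutation test that cannot go below 0.1 even unadjusted. Over all 9344 genes tested in these cells, CPM (UMIs relative to the total of the mouse) failed to overlap in 19.7%. Among the 9, 4 averaged 2% or more in a genotype. Igkv6-23 was used by 2.03%, 1.99% and 2.64% of assigned cells in LDHA-deficient mice, against 2.89%, 4.18% and 3.04% in LDHA-sufficient mice. Igkv8-24 was used by 2.03%, 2.28% and 2.64% in LDHA-deficient mice, against 1.29%, 1.74% and 0.870% in LDHA-sufficient mice. By share of cells Igkv6-23 thus stood lower and Igkv8-24 higher in each LDHA-deficient mouse. Igkv5-39 was used by 1.63%, 3.99% and 2.20% in LDHA-deficient mice, against 0.643%, 0.348% and 1.30% in LDHA-sufficient mice, and 1 plasma cell-like cell of LDHA-deficient mouse 1 held 702 of its 1195 UMIs. Igkv5-43 was used by 1.22%, 1.14% and 1.32% in LDHA-deficient mice, against 4.82%, 1.39% and 1.74% in LDHA-sufficient mice. By CPM in non-GC B cells all 4 overlapped between the genotypes. Igkv8-24 went the other way there, at 78.5 ± 8.24 CPM in LDHA-deficient and 85.9 ± 44.6 CPM in LDHA-sufficient mice, and Igkv6-23 averaged 105 ± 26.2 CPM in LDHA-deficient and 115 ± 11.3 CPM in LDHA-sufficient mice. Igkv5-43, which is 98.4% identical to Igkv5-45, also went the other way and averaged 83.9 ± 18.2 CPM in LDHA-deficient and 43.1 ± 27.1 CPM in LDHA-sufficient mice. Igkv5-39 followed its share there, at 70.9 ± 21.1 CPM in LDHA-deficient and 41.7 ± 12.9 CPM in LDHA-sufficient mice. Over all B-lineage cells Igkv8-24 followed its share, at 75.4 ± 11.4 CPM in LDHA-deficient and 47.6 ± 16.7 CPM in LDHA-sufficient mice. Igkv5-43 did not, at 99.4 ± 27.4 CPM in LDHA-deficient and 57.2 ± 47.4 CPM in LDHA-sufficient mice. The other 5 genes were Igkv16-104, Igkv13-84, Igkv8-19, Igkv12-98 and Igkv4-74, used by 5 to 19 cells each.

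Summed UMIs per mouse were compared between genotypes with edgeR's quasi-likelihood test over all genes. In all B-lineage cells 1 of 70 tested members passed an adjusted p of 0.05 (1.43%), against 1.64% of all 9344 genes (0.257% higher and 1.38% lower). It was higher in LDHA-deficient mice, and 7 of 70 passed unadjusted, against 16.7% of all genes. In non-GC B cells, which leave out the GC B-like and the plasma cell-like cells, 1 of 66 members passed (1.52%), against 0.0707% of 8488 genes, which is 6 genes (0.0118% higher and 0.0589% lower). It was lower in LDHA-deficient mice, and 6 of 66 passed unadjusted, against 4.78% of all genes. CPM did not overlap between genotypes for 8 of 70 members (11.4%) in all B-lineage cells, 6 higher and 2 lower in LDHA-deficient mice, against 9.77% higher and 9.9% lower over all genes. In non-GC B cells this held for 7 of 66 (10.6%), 4 higher and 3 lower, against 10.2% of all genes (5.22% higher and 5.0% lower). The median log2 fold change over the tested members was -0.04 in all B-lineage cells (0.0089 over all genes) and -0.12 in non-GC B cells (-0.0031 over all genes). Members scattered more widely, with an SD of 2.05 against 0.46 over all genes in all B-lineage cells, and of 0.79 against 0.27 in non-GC B cells. In such sums fewer cells with a segment and fewer UMIs per cell cannot be told apart.

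Igkv13-84, a segment 1786 kb from Igkc, fell in LDHA-deficient mice among non-GC B cells. Its UMIs were 19, 10 and 17 in LDHA-deficient mice, against 52, 33 and 41 in LDHA-sufficient mice, which is 16.1, 5.91 and 16.8 CPM in LDHA-deficient mice, against 42.5, 32.4 and 40.0 CPM in LDHA-sufficient mice. The values do not overlap, and edgeR gave a log2 value of -1.67 (SE 0.27, adjusted p = 0.000268). Few cells carry it: 1, 0 and 1 cells used it in LDHA-deficient mice, against 2, 3 and 2 in LDHA-sufficient mice, and these 9 cells held 125 of its 172 UMIs. With GC B-like and plasma cell-like cells included the log2 value was -2.24 (SE 0.67, edgeR adjusted p = 0.216). The adjusted p there was 0.0381 with DESeq2 and 0.000576 with edgeR without LDHA-sufficient mouse 2. Its nearest neighbour, Igkv13-85, is 96.3% identical.

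Igkv1-133, 3001 kb from Igkc, rose in LDHA-deficient mice over all B-lineage cells. It had 14, 25 and 19 UMIs in LDHA-deficient mice, against 4, 6 and 8 in LDHA-sufficient mice, which is 10.2, 13.2 and 15.8 CPM in LDHA-deficient mice, against 1.60, 2.79 and 6.15 CPM in LDHA-sufficient mice. The groups do not overlap, and edgeR gave a log2 value of 2.05 (SE 0.42, adjusted p = 0.0187). It was used by 1, 3 and 0 cells in LDHA-deficient mice, against 0, 1 and 0 in LDHA-sufficient mice, and 39 of its 76 UMIs lay in cells that were not given it. The cell with most Igkv1-133 UMIs held 9, 16 and 16 of them in the LDHA-deficient mice, against 1, 5 and 8 in the LDHA-sufficient mice. The rise thus rests on few cells per mouse. In non-GC B cells the log2 value was 1.37 (edgeR adjusted p = 0.319). The call was lost with HTODemux hashtag calls (log2 1.68, edgeR adjusted p = 0.198) and when any mouse but LDHA-sufficient mouse 3 was left out (edgeR adjusted p = 0.0728 to 0.166).

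Other genes of the light chain loci and of light chain transcription did not pass. Of a list of 36, edgeR tested 27 in all B-lineage cells and 26 in non-GC B cells, with 0 past the adjusted threshold in both (0 by DESeq2) and median log2 values of 0.02 and -0.03. Unadjusted, 4 of 27 (14.8%) passed in all B-lineage cells, against 16.7% of all genes, and 6 of 26 (23.1%) in non-GC B cells, against 4.78% of all genes. The 6 were Iglc1, Irf4, Cd79b, Vpreb3, Iglv1 and Spi1. All but Vpreb3 had CPM that did not overlap between the genotypes, which held for 10.2% of all 8488 genes there. As the 6 were picked by p in the same data, this is no separate result. Irf4, a transcription factor that acts at light chain enhancers, averaged 130 ± 10.3 CPM in LDHA-deficient and 96.7 ± 16.5 CPM in LDHA-sufficient mice (log2 0.42, edgeR adjusted p = 0.319). Cd79b, a signalling subunit of the B cell receptor, averaged 1443 ± 67.2 CPM in LDHA-deficient and 1656 ± 67.8 CPM in LDHA-sufficient mice (log2 -0.20, edgeR adjusted p = 0.450). Iglv1, a lambda variable segment, averaged 549 ± 142 CPM in LDHA-deficient and 920 ± 136 CPM in LDHA-sufficient mice (log2 -0.74, edgeR adjusted p = 0.963). Igkc, the kappa constant gene, averaged 2423 ± 94.9 CPM in LDHA-deficient and 2285 ± 85.2 CPM in LDHA-sufficient non-GC B cells (log2 0.09, edgeR adjusted p = 0.969). Pou2af1, a coactivator of antibody promoters, had a log2 value of 0.09, and Pou2f2, its octamer-binding partner, of -0.07 in the same cells. The lambda constant genes Iglc1, Iglc2 and Iglc3 had log2 values of -0.29, -0.06 and 0.06 there. The 5 Igkj genes had 0 UMIs, so the joining partner of a segment could not be read.

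Lambda constant transcripts were too widespread to mark lambda cells. In 99.4% of B-lineage cells an Iglc UMI was found, and Iglc UMIs exceeded Igkc UMIs in 42.0% ± 2.49 of cells in LDHA-deficient and 41.6% ± 2.98 in LDHA-sufficient mice (exact permutation p = 0.8, n = 3 each). Lambda variable UMIs exceeded Igkv UMIs in 195 cells (10.6%), with 11.1%, 9.18% and 6.43% in LDHA-deficient mice, against 13.6%, 11.0% and 11.3% in LDHA-sufficient mice. Of these 195 cells 112 were given an Igkv gene with a median of 2 leading UMIs, and 38 passed the stricter rule.

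Igkv1-117 or Igkv1-110 led in several B cell states when the genotypes were pooled. Igkv1-117 was used by most cells in follicular B-like cells (28 of 461 assigned, 6.07%) and in marginal zone B-like cells (17 of 223, 7.62%). Igkv1-110 led in interferon-responding B-like cells (15 of 183, 8.20%) and in 1 unnamed cluster (17 of 270, 6.30%). In activated B-like cells Igkv1-135, Igkv10-96 and Igkv12-44 were used by 7 cells each of 142. Within a genotype the leader changed in several states. In follicular B-like cells it was Igkv1-110 in LDHA-deficient mice (18 of 252), against Igkv1-117 in LDHA-sufficient mice (14 of 209). In interferon-responding B-like cells it was Igkv1-110 in LDHA-deficient mice (8 of 88), against Igkv1-135 in LDHA-sufficient mice (8 of 95). In the unnamed cluster led by Igkv1-110 it was Igkv1-135 in LDHA-deficient mice (11 of 154), against Igkv1-110 in LDHA-sufficient mice (8 of 116). Igkv1-117 led marginal zone B-like cells in both. These are counts of few cells, and no test was made between genotypes within a state. GC B-like cells, plasma cell-like cells and the second unnamed cluster, where Igkv4-72 led with 18 of 161 cells, had other leaders. The share given a gene ran from 82.1% in that cluster to 95.2% in plasma cell-like cells. Median Igkv UMIs per 10000 UMIs of a cell were 46.9 in follicular, 43.4 in interferon-responding, 37.3 in activated, 33.6 in marginal zone and 30.7 in GC B-like cells, against 758 in plasma cell-like and 9.21 in myeloid cells.

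**Figure D5:**
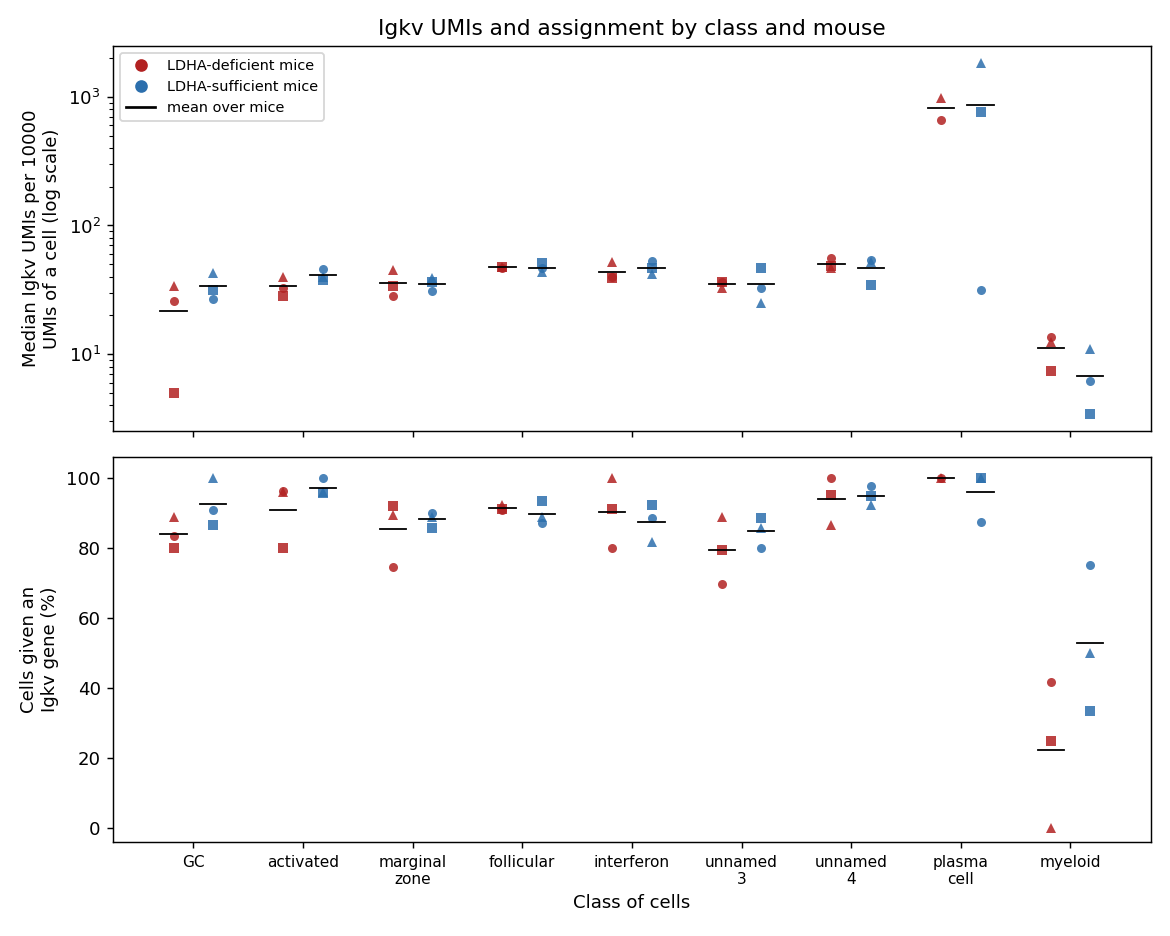
Median Igkv UMIs per 10000 UMIs of a cell (upper, log scale) and share of cells given an Igkv gene (lower, %) by class and mouse, LDHA-deficient left of LDHA-sufficient, with the mean over mice. Plasma cell-like cells lie at 663 or higher except in LDHA-sufficient mouse 1 (31.8; LDHA-deficient mouse 2 had none), myeloid cells at 13.5 or lower and GC B-like cells of LDHA-deficient mouse 2 at 4.98, and in marginal zone B-like cells each mouse lies below its follicular value in the upper plot.

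Marginal zone B-like cells, which lie at the edge of the follicle and respond fast to blood-borne antigens, held fewer Igkv UMIs per 10000 than follicular B-like cells of the same mouse in 6 of 6 mice. The values were 28.2, 33.7 and 45.0 in marginal zone cells, against 47.0, 47.3 and 47.7 in follicular cells of the LDHA-deficient mice. In the LDHA-sufficient mice they were 31.1, 36.2 and 38.9 in marginal zone cells, against 46.9, 50.8 and 43.2 in follicular cells. The means were 35.5 ± 5.99 in marginal zone and 47.1 ± 2.43 in follicular cells (SD, n = 6 mice), and an exact sign-flip permutation gave p = 0.031, the smallest for 6 mice (adjusted p = 0.156 over 5 measures). Marginal zone cells were deeper, with a median of 4948 UMIs against 3488 in follicular cells, and their median count of Igkv UMIs per cell was 18.9 ± 2.92 against 16.5 ± 1.38 (exact permutation p = 0.156). The part of depth in the lower value was not tested.

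No difference in the choice of segments passed a test between these classes. The effective number was 45.4 ± 18.3 in marginal zone and 38.2 ± 2.72 in follicular cells (exact permutation p = 0.5, n = 6), and the distal share was 52.1% ± 9.70 in marginal zone and 49.3% ± 8.85 in follicular cells (exact permutation p = 0.688). Of 78 genes used in either class 0 differed the same way in 6 of 6 mice by share of cells (0 with an unadjusted exact permutation p under 0.05). By CPM 3 of 86 genes did, all lower in marginal zone cells, which is 3.49% against a background of 14.2% of 10434 genes (4.67% higher and 9.51% lower). They were Igkv1-135 (133 ± 74.4 against 333 ± 136 CPM), Igkv12-46 (115 ± 58.9 against 204 ± 81.8 CPM) and Igkv3-12 (26.4 ± 32.7 against 74.9 ± 45.5 CPM).

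GC B-like cells used a narrower set of segments in LDHA-sufficient mice 1 and 2. There were 12, 10 and 18 GC B-like cells in LDHA-deficient mice, against 76, 82 and 18 in LDHA-sufficient mice, and 192 of the 216 were given a gene. The 216 had a median of 10179 UMIs per cell, against 3756 in non-GC B cells. They used 56 genes, 23 in LDHA-deficient and 49 in LDHA-sufficient mice, and unequal cell numbers allow no comparison of these counts. In LDHA-sufficient mice 1 and 2 the effective number was 17.0 and 26.2 in GC B-like cells, against 41.2 and 42.8 in non-GC B cells. With 1 cell per heavy chain clone it was 20.6 and 32.2 in GC B-like cells. A heavy chain was read in 1183 of 1847 B-lineage cells, and cells without one could not be grouped, so clones were removed only in part. LDHA-sufficient mouse 3 does not share the narrower use, with 51.0 in 18 assigned GC B-like cells against 41.9 in non-GC B cells. In LDHA-deficient mice 1 and 3 the GC values of 22.5 and 15.0 rest on 10 and 16 cells, against 39.0 and 40.0 in non-GC B cells, and in LDHA-deficient mouse 2 no segment recurred among 8 cells. The labels name no antigen, and no test was made between genotypes here.

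Of the leading segments of the GC some came mostly from 1 mouse and others from several. Igkv3-2 was used by 13 GC B-like cells, 12 of them in LDHA-sufficient mouse 1, and made up 8.23% of GC against 1.98% of non-GC assigned cells of the LDHA-sufficient mice. Igkv5-43 was used by 12, of which 9 were in LDHA-sufficient mouse 1 (6.96% of GC against 1.83% of non-GC cells). Igkv5-48 was used by 12, with 4 in LDHA-deficient mouse 3 and 8 in LDHA-sufficient mouse 2 (5.06% of GC against 2.13% of non-GC cells). Igkv6-15 was used by 11 GC B-like cells, with 1, 0 and 2 in LDHA-deficient mice, against 3, 5 and 0 in LDHA-sufficient mice. Igkv14-111 was used by 10, with 0, 1 and 1 in LDHA-deficient mice, against 2, 5 and 1 in LDHA-sufficient mice. Igkv1-135 was used by 9, with 0, 1 and 0 in LDHA-deficient mice, against 2, 5 and 1 in LDHA-sufficient mice. These 3 segments were thus spread over 4 or 5 mice each. Igkv13-84 was used by 0 GC B-like cells of LDHA-deficient mice and by 6, 1 and 1 of LDHA-sufficient mice (5.06% of GC against 1.07% of non-GC cells). Igkv2-109 was used by 7, of which 6 were in LDHA-sufficient mouse 2. Igkv1-117, the leader over all B-lineage cells, was used by 7 GC B-like cells, 5 of them in LDHA-sufficient mice (3.16% of GC against 5.79% of non-GC cells).

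The heavy chain library, read from other molecules of the same cells, gives a mark of clones, and in the 5 clones of 3 or more cells every cell used the segment of its clone. Leaving out the shared IgA chain described below, 19 groups of 2 or more assigned B-lineage cells of 1 mouse shared a deposited clone number, 4 groups with 8 cells in LDHA-deficient and 15 with 40 cells in LDHA-sufficient mice. Within them 39 of 48 pairs (81.3%) used the same Igkv gene, against 2626 of 103845 pairs (2.53%) of 1 mouse with different clone numbers. The pooled count rests on those 5 clones, all in LDHA-sufficient mice 1 and 2, which gave 34 of the 39 pairs. Of the 14 clones of 2 cells, 5 shared the gene and 9 did not. By genotype 0 of 4 pairs shared it in LDHA-deficient mice, against 39 of 44 in LDHA-sufficient mice. The 4 LDHA-deficient clones all had 2 cells, so clone size and genotype cannot be told apart in this contrast. Among pairs in which both cells had 5 or more leading UMIs, 37 of 42 used the same gene. Pairs share cells, and no test was made.

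The largest clone showed the same segment beside a changing heavy chain. Its 6 GC B-like cells of LDHA-sufficient mouse 2 used Igkv5-48 with IGHV5-17, and the 6 were IgG2b (3 cells), IgG3, IgG2c and IgM. Their heavy chain junctions, from the deposited table, had 3 forms, seen in 3, 2 and 1 cells, and capitals mark positions that differ among them.
Igkv5-48 clone junction 1: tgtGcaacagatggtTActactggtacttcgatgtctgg
Igkv5-48 clone junction 2: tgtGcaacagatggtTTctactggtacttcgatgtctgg
Igkv5-48 clone junction 3: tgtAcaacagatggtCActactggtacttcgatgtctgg

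A second clone of that mouse held 5 IgM cells with Igkv2-109 and IGHV1-26, all GC B-like. Each of the 5 cells had its own junction, 57 bases long, and all 5 kept the segment, which makes them 5 of the 6 GC B-like cells with Igkv2-109 there. Capitals mark positions that differ among the 5.
Igkv2-109 clone junction 1: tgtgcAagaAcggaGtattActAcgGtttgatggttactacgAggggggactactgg
Igkv2-109 clone junction 2: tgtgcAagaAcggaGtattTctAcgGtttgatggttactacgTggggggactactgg
Igkv2-109 clone junction 3: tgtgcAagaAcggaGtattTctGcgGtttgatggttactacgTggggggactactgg
Igkv2-109 clone junction 4: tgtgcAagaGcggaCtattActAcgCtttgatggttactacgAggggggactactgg
Igkv2-109 clone junction 5: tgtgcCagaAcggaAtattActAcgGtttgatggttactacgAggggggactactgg

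In LDHA-sufficient mouse 1 a clone of 3 GC B-like cells with Igkv5-43 and IGHV1-49 had 3 junctions, in which capitals mark the differences. Clones of 3 GC B-like cells with Igkv13-84 and IGHV1-58 and with Igkv3-2 and IGHV1-7 came from the same mouse. These clones account for 3 of 9, 3 of 6 and 3 of 12 GC B-like cells with the segments in it, which is a lower bound, as not every cell had a heavy chain. A pair of IgA plasma cell-like cells of that mouse shared Igkv1-110, with 4443 and 4751 UMIs.
Igkv5-43 clone junction 1: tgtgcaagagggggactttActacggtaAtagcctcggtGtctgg
Igkv5-43 clone junction 2: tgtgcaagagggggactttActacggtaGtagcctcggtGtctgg
Igkv5-43 clone junction 3: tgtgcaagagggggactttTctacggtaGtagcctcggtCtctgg

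Some barcodes held 2 strong segments. In 125 B-lineage cells (6.77%) the second gene had 5 or more UMIs and at least 1 UMI for every 2 of the leader. Their share was 6.27%, 7.40% and 6.83% in LDHA-deficient mice, against 8.41%, 6.94% and 3.89% in LDHA-sufficient mice, with overlap. They formed 120 different pairs of genes, of which 5 occurred in 2 cells each and the others in 1. Among those with a heavy chain 14 of 84 (16.7%) had 2 heavy chains, against 63 of 914 cells with a single clear segment (6.89%), and their median UMI count was 6095 against 4247. The richest was a GC B-like cell of LDHA-sufficient mouse 1 with 1772 Igkv12-44 and 1689 Igkv9-129 UMIs and 1 heavy chain. It held 93.0% of all Igkv9-129 UMIs of B-lineage cells. Cells with 2 rearranged kappa alleles and droplets with 2 cells cannot be told apart here.

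Igkv4-72 was tied to 1 heavy chain. All 191 barcodes that carried an IgA chain with IGHV1-42 and a single junction sequence, shown next, had Igkv4-72 as their gene with most UMIs, and they held 91.7% of the Igkv4-72 UMIs of the lane. Most of these barcodes had no single hashtag, but 18 counted as B-lineage cells, with 4, 3 and 3 in LDHA-deficient mice, against 5, 3 and 0 in LDHA-sufficient mice. All 18 lay in the unnamed cluster led by Igkv4-72, with a median of 80.5 Igkv4-72 UMIs. Of the 31 B-lineage cells that used Igkv4-72, the other 13 did not carry the chain, and 8 of them had no heavy chain read.
IgA junction: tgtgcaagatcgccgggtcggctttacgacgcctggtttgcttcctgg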

How the data were processed

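The 3 GEO libraries of 1 droplet lane hold transcripts, hashtags and heavy chains of the same barcodes. The authors deposited whole-number counts of UMIs per gene and of hashtags per barcode, with no normalization, from Cell Ranger 6.0.2 per the file headers. The submitters' processing notes name Cell Ranger 6.0.0, Seurat 4.2.1 and mm10. The deposited heavy chain table gives calls, junctions, V identity as a fraction and clone numbers, and no source used here names the tool that grouped clones.

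B cell states were rebuilt. Barcodes with 500 genes, 1000 UMIs and under 10% mitochondrial UMIs were clustered with scanpy 1.11.5 (Leiden by igraph 0.11.9, resolution 0.8, 2000 genes, 30 components, 20 neighbours) without antibody genes and Ldha. A cluster was named from 3 or more listed markers 1.5-fold higher. Class names therefore end in -like. Segments were compared with edlib 1.3.9.post1, and gene coordinates are from GENCODE vM21. UMIs were summed per mouse and tested with edgeR 4.0.16 (R 4.3.3, quasi-likelihood, Benjamini-Hochberg, threshold 0.05). DESeq2 1.42.0 and HTODemux of Seurat 5.3.0 were alternatives. Single measures had two-sided exact permutation tests over mice (scipy 1.17.1), whose smallest p is 0.1 for 3 against 3 and 0.031 for 6 pairs. On simulated data for all B-lineage cells (9344 genes) 71% of genes changed by log2 1 and 94% of those changed by log2 2 were called, with 14 false of 179 calls. For non-GC B cells (8488 genes) these were 71% and 99%, with 11 false of 181. Totals were 1175200 to 2463530 UMIs per mouse. A near-identical segment can take or lose reads. Whether the mice were handled apart before pooling is not stated. The segments, lists and tests were chosen with earlier results of these data known, and named genes are the 10 most used by cells or UMIs, those past a test, and those without overlap that average 2% or more. Other genes, such as the GC and clone segments, were named after their values were seen.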

Additional observations from a re-analysis of the deposited data

Results flagged for a closer look

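The barcodes left out for lack of a single hashtag carry a signal outside the comparisons. Of these 931 barcodes 173 (18.6%) carried the IgA chain of the Igkv4-72 cells, against 18 of 1847 B-lineage cells (0.975%). The chain has a single junction sequence in all 191 barcodes, which lie in 5 of 6 mice where a hashtag was called. Why it is more frequent without a single hashtag was not tested. In the 5 measures of marginal zone minus follicular cells no mouse stood apart from the other 5. Other measures were not checked for this.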

How the results depend on the processing

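Of 149 alternative values 115 kept their direction and side of the threshold, 7 were weaker, 13 reversed and 14 counts moved by over 1.5 times, and the cause was not tested. For the measures compared between genotypes the exact permutation p cannot go below 0.1, so only their direction could change. Of the 7 weaker values 6 were repeats on 5 mice, where the smallest exact permutation p is 0.0625. The tally is thus no measure of how stable the sizes are. In all B-lineage cells 1 of 70 Igkv genes was called (153 of all 9344 genes). It was 2 of 70 with DESeq2 (197 of 9344) and 12 of 102 with no filter on low counts (667 of 16664). With HTODemux 0 of 68 were called (111 of 9175), and 0 to 7 with each mouse left out (4 to 1419 over all genes). In non-GC B cells 1 of 66 was called (6 of 8488 over all genes), against 8 of 102 with no filter on low counts (27 of 15818). With each mouse left out it was 1 to 6 (5 to 15 over all genes). The 7 were of 73 tested in all B-lineage cells without LDHA-sufficient mouse 3, where 1419 of all 9824 genes were called. The 6 were of 68 in non-GC B cells without LDHA-deficient mouse 1, where 15 of all 8560 genes were called. Igkv13-84 passed in each non-GC alternative (edgeR or DESeq2 adjusted p = 4.63e-07 to 0.0455).

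Differences between genotypes near 0 changed sign. The share given a gene differed by -1.25 percentage points, and by -2.43 to 0.294 with each mouse left out. The share of the most used gene differed by 0.110, by -0.165 with HTODemux, by -0.0685 without plasma cell-like cells and by -0.814 to 1.11 with each mouse left out. The distal share differed by 2.03, and by -1.99 to 6.32 with each mouse left out. The lambda share differed by 0.385, by -3.06 from variable UMIs (an alternative chosen after seeing the data) and by -1.29 to 1.74 with each mouse left out. Between marginal zone and follicular cells the distal share differed by 2.81, by -0.350 at clustering resolution 0.4, by -1.32 under the stricter rule and by -1.07 to 7.56 with each mouse left out. The lower Igkv level per 10000 UMIs in marginal zone cells (-11.6) was -8.17 at resolution 0.4 (exact permutation p = 0.0625) and -13.4 to -10.2 with each mouse left out (exact permutation p = 0.0625, the smallest for 5 mice). No paired analysis was possible because the hashtag numbers name mice and pair none across genotypes. The median SE of log2 over the tested members was 0.74 in all B-lineage and 0.53 in non-GC B cells, against 0.20 over all genes in both, and changes of members alone were not simulated.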
